A study of Homo sapiens with 12 samples.

Results

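Complex I, the NADH dehydrogenase of the mitochondrial respiratory chain, was followed through 43 nuclear genes in K562 cells given AKB (alpha-ketobutyrate), pyruvate or neither. The genes form a list of symbols drawn up with earlier results of these data known, and 43 of 43 were found among the 17786 gene identifiers of the count table. They comprise 10 genes of the NADH-oxidising N module, 5 of the ubiquinone-reducing Q module, 9 of the proximal and 11 of the distal membrane arm, the acyl carrier subunit NDUFAB1 and 7 assembly factors named NDUFAF. K562 is a human line from a chronic myelogenous leukaemia. Messenger RNA was sequenced from 4 libraries of cells given 2 mM AKB for 24 h, 4 of cells given 2 mM pyruvate for 24 h and 4 of untreated cells, with all groups kept in the same serum medium with glutamine. The labels name no vehicle for the untreated cells. They also leave unsaid whether the 4 replicates of each group were grown as separate cultures, so the p-values speak only of the variation among these particular libraries, which may be technical.

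Complex I takes electrons from NADH at a flavin in its matrix arm, passes them along iron-sulphur clusters to ubiquinone, and pumps protons through its membrane arm. Part of the membrane arm is encoded by mitochondrial DNA, while the remaining subunits and the factors that assemble the complex are made from nuclear genes. AKB and pyruvate are both alpha-keto acids that lactate dehydrogenase can reduce with NADH, the substrate of complex I, and AKB has an ethyl group where pyruvate has a methyl group.

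The libraries held 15353200 to 21301073 counts each, and the 43 genes were all among the 13598 that passed the filter on low counts. Levels are given as counts scaled to the TMM-adjusted library size (CPM), a scale on which a gene can be compared between libraries but genes of different length cannot be compared with each other. Of the erythroid markers fixed for K562, 9 of 9 were detected, with a summed level of 15639 to 17418 CPM with AKB, 12147 to 13588 CPM with pyruvate and 14275 to 15937 CPM in untreated cells. Markers of lymphoid cells, monocytes and fibroblasts (7 of 8 in the table) summed to 56.3 to 65.5 CPM with AKB, 41.9 to 49.4 CPM with pyruvate and 43.5 to 49.8 CPM in untreated cells. Within this list the levels differed. The T cell marker CD3E stood at or below 0.122 CPM in every library, while the T cell marker CD3D stood at 1.95 to 3.37 CPM. The monocyte marker LYZ was the highest, at 28.1 to 51.8 CPM. In bulk samples, fewer cells of a type and less RNA per cell cannot be told apart.

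Some libraries stood apart. Pyruvate replicates 3 and 4 both lay above the other 10 libraries for 23 of the 43 genes, beside 23.8% of all genes tested, and both below them for 6, beside 28.2%. These libraries also held the most counts, 19891231 and 21301073, and their levels followed transcript GC content across all genes, as described further on. In pyruvate replicate 1, NDUFA6 was listed at an exact 0. The main pyruvate results are therefore given also without pyruvate replicates 3 and 4, and that of NDUFA6 without replicate 1.

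**Figure D1:**
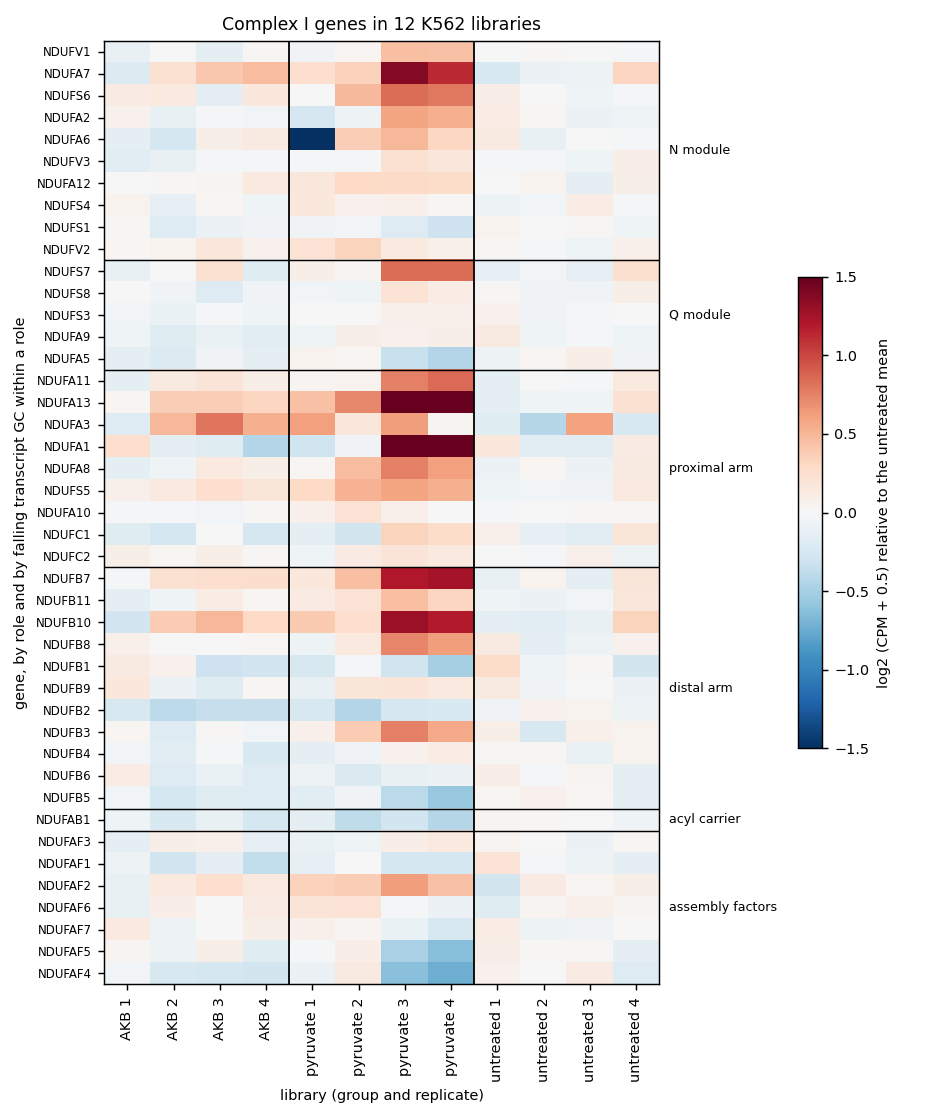
Level of each of the 43 complex I genes in each library, as log2 (CPM + 0.5) relative to the mean of the 4 untreated libraries, with colours held at 1.5 in either direction. Genes run down by role and, within a role, by falling transcript GC content. The AKB columns are mostly pale, pyruvate replicates 3 and 4 carry most of the dark red cells, and the dark blue cell is NDUFA6, with 0 counts in pyruvate replicate 1.

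With AKB, 1 of the 43 complex I genes was called against untreated cells, and the summed level of the genes was slightly lower. The sum over the 43 genes was 3131 ± 55.9 CPM with AKB and 3231 ± 24.1 CPM in untreated cells (SD, n = 4 each). Every AKB library (3059 to 3192 CPM) lay below every untreated library (3200.2 to 3254 CPM), and no test was made of this sum. With pyruvate it was 3538 ± 274 CPM. Genes with many counts weigh most in this sum, whether through their level or their transcript length. NDUFA5, with a transcript of 5608 nucleotides, had a mean of 325 CPM with AKB and 357 CPM in untreated cells. The sum of the proximal arm was higher with AKB (604 against 578 CPM) and those of the other roles were lower. With AKB, 16 of the 43 estimates were above 0 and 27 below, beside 6985 and 6613 of all 13598 genes tested. The median log2 fold change over the genes was −0.03, with single genes between −0.33 and 0.53. By edgeR's quasi-likelihood test with adjustment over 13598 genes, 0 genes were called higher and 1 lower (adjusted p below 0.05). Among all genes tested, 1.37% were called higher and 0.603% lower. The counts with an unadjusted p below 0.05 were 1 and 3, beside 8.07% and 5.13%. DESeq2's Wald test also called 0 higher and 1 lower, beside 2.4% and 1.4%. In pyruvate cells, 2 of the 43 were called higher and 1 lower, beside 1.02% and 0.927% of all genes tested. Between AKB and pyruvate, 0 were called higher and 1 lower, beside 1.94% and 1.19%. With an unadjusted p below 0.05 there were 0 and 18, beside 12.2% and 12.1%, and DESeq2's Wald test called 0 and 11, beside 5.34% and 7.48%. Without pyruvate replicates 3 and 4 the counts between AKB and pyruvate were 0 and 0 called, beside 2.52% and 1.84%, and 0 and 8 at an unadjusted p below 0.05, beside 11.3% and 10.1%. Both compounds were compared with the same untreated libraries.

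The gene that fell with AKB was NDUFB2, which encodes a small accessory subunit of the distal membrane arm. NDUFB2 had 98.4, 88.4, 91.4 and 91.2 CPM with AKB, 98.3, 85.4, 97.8 and 99.5 CPM with pyruvate, and 112, 122, 120.2 and 111 CPM in untreated cells. Every AKB and every pyruvate library was below every untreated library. Among the 43 genes, NDUFB2 was the only 1 whose AKB libraries all lay below the untreated ones, and no gene had all of them above (8.41% and 8.74% of all genes tested). With AKB its log2 fold change was −0.33 (SE 0.067, 95% interval −0.48 to −0.19, adjusted p = 0.0255 by edgeR). With pyruvate it was −0.29 (SE 0.067, 95% interval −0.43 to −0.14, adjusted p = 0.0496), so NDUFB2 fell 1.26-fold and 1.22-fold. AKB and pyruvate themselves differed by −0.05 for this gene, with an interval of −0.19 to 0.10.

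Both calls of NDUFB2 lie close to the threshold. The AKB call was as large without pyruvate replicates 3 and 4 (log2 −0.33, adjusted p = 0.0048), and was lost when untreated replicate 1, 2 or 3 or AKB replicate 2, 3 or 4 was left out (adjusted p 0.0745 to 0.102 by edgeR). It was also lost with the replicate number as a block, at 0.0639, and 0.0560 with the GC-content offset added. The fits without 1 library that lost the AKB call had 34 to 40 of all genes lower with AKB, against 82 in the fit of all 12 libraries. Among the fits with 1 library left out, the pyruvate call of NDUFB2 held only without pyruvate replicate 1 or 2, at 0.0256 and 0.0248. Without replicates 3 and 4 it had a log2 fold change of −0.34 and an adjusted p of 0.0515, and with a GC-content offset −0.18 and 0.175. The pyruvate call was lost too with DESeq2's size factors (0.0577), with no filter on low counts (0.0663), with the replicate block (0.0533) and in the fit of the 8 libraries compared (0.168), and held by DESeq2's Wald test (0.0037). The fits without 1 library that lost the pyruvate call had 31 to 88 of all genes lower with pyruvate, against 126 in the fit of all 12 libraries. In the annotation NDUFB2 lies at chr7:140690777-140722790 (GRCh38, plus strand) and overlaps BRAF on the other strand (68.0 to 93.5 CPM) and also ADCK2 (6.19 to 13.6 CPM). The library kit named in the labels does not mark strand, so reads from the overlap cannot be told apart.

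The window around the annotated start of NDUFB2, from RefSeq on GRCh38.p14 at chr7:140696458-140696757, plus strand, is printed because it is the gene called with both compounds. It holds none of the motifs searched here, so all letters are small.

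NDUFB2: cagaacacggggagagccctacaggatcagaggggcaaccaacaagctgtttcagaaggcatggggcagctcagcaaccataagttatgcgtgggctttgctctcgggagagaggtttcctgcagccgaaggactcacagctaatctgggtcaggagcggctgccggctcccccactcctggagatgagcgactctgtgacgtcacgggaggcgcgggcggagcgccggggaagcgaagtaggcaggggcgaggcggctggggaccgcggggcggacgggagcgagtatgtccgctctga

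NDUFS5 rose with pyruvate, in all 4 libraries. NDUFS5 encodes an accessory subunit of the proximal membrane arm that faces the intermembrane space and is held by disulphide bonds. It stood at 170.0, 199, 209 and 199.8 CPM with pyruvate, against 132, 135, 133 and 153 CPM in untreated cells. With AKB it stood at 146, 153, 165 and 157 CPM. The pyruvate libraries all lay above both other groups, and the AKB libraries overlapped the untreated ones through untreated replicate 4. The change of NDUFS5 with pyruvate was 1.41-fold (log2 0.49, SE 0.076, 95% interval 0.33 to 0.66, adjusted p = 0.0109 by edgeR).

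The rise of NDUFS5 does not rest on replicates 3 and 4 alone: without them its log2 fold change was 0.42, with an adjusted p of 0.0389. It passed with the GC-content offset too (log2 0.52, adjusted p = 0.0027), and was lost when untreated replicate 1, 2 or 3 was left out (0.0577 to 0.0621) or when only the 8 libraries compared were fitted (0.0859). The fits that lost it called few genes in general, 1 to 2 of all genes higher with pyruvate, against 139 in the fit of all 12 libraries. AKB and pyruvate differed for NDUFS5 by −0.32 (SE 0.076, 95% interval −0.49 to −0.16, adjusted p = 0.0457 by edgeR), lower with AKB in 4 of 4 libraries. That difference was −0.25 with an adjusted p of 0.0973 without pyruvate replicates 3 and 4, and it missed the threshold without any 1 of the AKB or untreated libraries and without pyruvate replicate 3 or 4 (0.0510 to 0.140). These fits without 1 library called 7 to 59 of all genes lower with AKB than with pyruvate, against 162 in the fit of all 12 libraries. With AKB against untreated cells the log2 fold change of NDUFS5 was 0.17 (95% interval 0.0045 to 0.34, adjusted p = 0.365). The gene lies at chr1:39026318-39034636, plus strand, and 6 pseudogenes carry its name in the annotation, so how its reads were shared with them is uncertain.

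The gene with the highest pyruvate estimate was NDUFA13, also known as GRIM19, an accessory subunit that crosses the membrane at the foot of the matrix arm. NDUFA13 had 51.3, 62.1, 136 and 124 CPM with pyruvate, against 34.2, 36.0, 36.0 and 44.2 CPM in untreated cells, and 38.5, 48.9, 48.8 and 47.0 CPM with AKB. All 4 pyruvate libraries were above both other groups, and replicates 3 and 4 were far above replicates 1 and 2. NDUFA13 was 2.49-fold higher with pyruvate (log2 1.32, SE 0.26, 95% interval 0.74 to 1.89, adjusted p = 0.0345 by edgeR). Without replicates 3 and 4 the log2 fold change was 0.59 and the adjusted p 0.0534. With the GC-content offset it was 1.00 (adjusted p = 0.0036). The call was kept when untreated replicate 4 (0.0499), pyruvate replicate 1 (0.0035) or pyruvate replicate 2 (0.0167) was left out, and lost without each of the other 9 libraries (0.0506 to 0.129) and in the fit of the 8 libraries compared (0.145). These fits with the call lost had 1 to 47 of all genes called higher with pyruvate, against 139 in the fit of all 12 libraries.

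NDUFA13 lies at chr19:19515736-19529054, plus strand, where AC011448.1 (0.123 to 1.49 CPM) and YJEFN3 (2.41 to 6.97 CPM) overlap it on the same strand. Between AKB and pyruvate it differed by −1.03 (95% interval −1.60 to −0.46, adjusted p = 0.0542), and between AKB and untreated cells by 0.29 (95% interval −0.29 to 0.86, adjusted p = 0.723). The sequence around its annotated start (RefSeq, GRCh38.p14, chr19:19515975-19516274, plus strand) is shown for the called gene with the highest estimate. Its capitals mark a match to the ETS motif ACCGGAAG, which GABP factors bind.

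NDUFA13: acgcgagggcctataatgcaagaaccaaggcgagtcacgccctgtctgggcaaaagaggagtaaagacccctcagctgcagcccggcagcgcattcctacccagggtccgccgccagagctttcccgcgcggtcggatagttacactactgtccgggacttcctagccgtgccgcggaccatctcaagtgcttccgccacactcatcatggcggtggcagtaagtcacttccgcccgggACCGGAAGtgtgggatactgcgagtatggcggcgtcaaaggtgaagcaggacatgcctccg

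**Figure D2:**
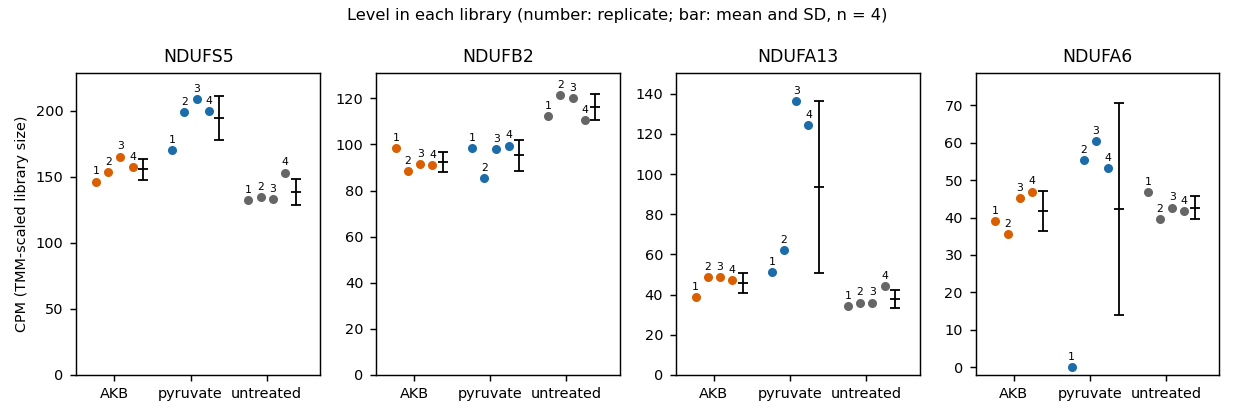
Level in CPM (TMM-scaled library size, linear axes) of NDUFS5, NDUFB2, NDUFA13 and NDUFA6 in each library, numbered by replicate, with the mean and SD of the 4 libraries beside them. NDUFS5 is high in all 4 pyruvate libraries, NDUFB2 is low in every treated library, NDUFA13 is highest in pyruvate replicates 3 and 4 (136 and 124 CPM), and NDUFA6 is at 0 in pyruvate replicate 1.

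In the proximal membrane arm, 9 of 9 genes had a pyruvate log2 fold change above 0, beside 6667 of all 13598 genes tested. Their median was 0.48, against 0.10 over the 43 genes, and 2 of them were called higher (1.02% of all genes tested). Without pyruvate replicates 3 and 4, 7 of 9 were above 0, beside 6780 of all 13941 genes tested. The median was then 0.15, against 0.04 over the 43 genes, and 1 was called higher (0.151% of all genes tested). The estimates below 0 were then those of NDUFC1 (−0.21, against 0.07 in all libraries) and NDUFA1, a small membrane-anchored subunit needed for assembly. NDUFA1 had 21.6, 25.5, 78.2 and 78.8 CPM with pyruvate, against 29.8, 23.7, 23.7 and 29.1 CPM in untreated cells. Its high values were replicates 3 and 4, while replicate 1 was below the untreated range and replicate 2 within it. The log2 fold change of NDUFA1 was 0.94 (95% interval 0.14 to 1.75, adjusted p = 0.129 by edgeR) in all libraries and −0.17 without these libraries.

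NDUFA1 was also the gene with the lowest estimate for AKB against pyruvate, at 31.8, 24.2, 23.3 and 19.5 CPM with AKB (log2 −1.05, 95% interval −1.85 to −0.25, adjusted p = 0.118). That estimate was 0.07 without pyruvate replicates 3 and 4. NDUFA3, another subunit of the proximal arm, had the highest estimate for AKB against untreated cells. It had only 2.19, 3.83, 4.86 and 3.95 CPM with AKB and 2.20, 1.77, 4.18 and 2.11 CPM in untreated cells, which overlap (log2 0.53, 95% interval −0.14 to 1.19, adjusted p = 0.508).

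In the N module, where NADH is oxidised, 8 of 10 genes had a pyruvate estimate above 0 (median log2 0.22), 5 of them at an unadjusted p below 0.05 (15% of all genes tested), and none was called by edgeR. Without pyruvate replicates 3 and 4, 5 of 10 were above 0 (median log2 0.05), 3 of them at an unadjusted p below 0.05 (7.1% of all genes tested). NDUFV1, the core subunit that binds NADH and the flavin, had 173, 184, 247 and 243 CPM with pyruvate, against 179.5, 183, 179 and 178 CPM in untreated cells. Replicates 3 and 4 were high, replicate 1 lay below the untreated range and replicate 2 just above it. Its log2 fold change was 0.24 (95% interval 0.0048 to 0.47, adjusted p = 0.168) and −0.01 without them. NDUFV2, a core subunit with an iron-sulphur cluster off the main chain, showed the other order. Its 172, 186, 163 and 155 CPM with pyruvate were highest in replicates 1 and 2, against 150.0, 144, 141 and 156 CPM in untreated cells.

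The log2 fold change of NDUFV2 was 0.20 (95% interval 0.050 to 0.34, adjusted p = 0.102 by edgeR), and 0.28 without pyruvate replicates 3 and 4. With the GC-content offset NDUFV2 was called higher (log2 0.38, adjusted p = 0.0064). NDUFS1, the largest core subunit, averaged 149 ± 13.2 CPM with pyruvate and 165 ± 5.80 CPM in untreated cells (log2 −0.15, adjusted p = 0.189; −0.05 without replicates 3 and 4). With AKB, the log2 fold changes of these core genes were −0.05 for NDUFV1, 0.08 for NDUFV2 and −0.08 for NDUFS1, with adjusted p of 0.894, 0.694 and 0.711.

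NDUFA6 is an accessory subunit that binds the acyl carrier NDUFAB1, and its result turned on 1 library. It had counts of 0, 922, 1195 and 1140 in the pyruvate libraries, against 850, 646, 786 and 691 in the untreated libraries, and 606, 575, 773 and 760 in the AKB libraries. The pyruvate libraries other than replicate 1, at 55.4, 60.4 and 53.2 CPM, lay above all 8 libraries of the other groups. In the fit of all libraries its log2 fold change was −0.01 (SE 0.72, adjusted p = 0.992 by edgeR). Without pyruvate replicate 1 NDUFA6 was 1.33-fold higher with pyruvate (adjusted p = 0.0229) and 1.36-fold lower with AKB than with pyruvate (adjusted p = 0.0205). That setting called far more genes in general, 10.2% higher and 8.87% lower with pyruvate over all genes tested. Between AKB and pyruvate it called 5.96% higher and 6.86% lower. The library was left out because of its value for NDUFA6, so these p-values depend on that choice. Of 6406 genes with a median of at least 30 CPM, 15 were listed at 0 in some library, 2 of them in pyruvate replicate 1.

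In the Q module, which carries electrons to ubiquinone, 4 of 5 genes had a pyruvate estimate above 0, with a median of 0.04 on the log2 scale, and 4 of 5 also without replicates 3 and 4, with a median of 0.02. NDUFS7, the core subunit with the last iron-sulphur cluster before ubiquinone, had 77.5, 75.0, 131 and 131 CPM with pyruvate, against 67.1, 70.9, 67.1 and 86.3 CPM in untreated cells. Replicates 3 and 4 were high, and replicates 1 and 2 were within the untreated range (log2 0.51, 95% interval 0.11 to 0.91, adjusted p = 0.113 by edgeR). The estimate of NDUFS7 was 0.07 without replicates 3 and 4, and 0.15 with the GC-content offset. NDUFS3 and NDUFS8 are core subunits of the same module. NDUFS3 averaged 107 ± 3.18 CPM with pyruvate and 104 ± 3.75 CPM in untreated cells (log2 0.04), and NDUFS8 averaged 84.1 ± 7.47 CPM with pyruvate and 81.0 ± 3.64 CPM in untreated cells (log2 0.06; SD, n = 4 each). Without replicates 3 and 4 the estimates were 0.01 for NDUFS3 and −0.05 for NDUFS8. With AKB, 5 of 5 Q module estimates lay below 0, from −0.14 to −0.01, beside 6613 of all 13598 genes tested, and none was called.

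In the distal membrane arm, 6 of 11 pyruvate estimates were above 0 and 5 below, in all libraries and without replicates 3 and 4. NDUFB7 and NDUFB10, subunits on the intermembrane space side, had log2 fold changes of 0.85 (adjusted p = 0.0565) and 0.87 (adjusted p = 0.0735). Without pyruvate replicates 3 and 4 these were 0.32 for NDUFB7 and 0.33 for NDUFB10. NDUFAB1, the mitochondrial acyl carrier protein that is also a subunit of complex I, had the lowest pyruvate estimate. Its levels were 172, 146, 155 and 140.3 CPM with pyruvate, against 195, 192, 191 and 181 CPM in untreated cells, and 181, 162, 175 and 158 CPM with AKB. The pyruvate libraries all lay below the untreated ones, with replicate 2 between replicates 3 and 4.

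NDUFAB1 had a log2 fold change of −0.31 with pyruvate (SE 0.072, 95% interval −0.46 to −0.15, adjusted p = 0.0508 by edgeR), just outside the threshold. It was −0.25 (adjusted p = 0.146) without replicates 3 and 4, and passed with the GC-content offset (−0.26, adjusted p = 0.0224). With AKB it was −0.16 (95% interval −0.32 to −0.0074, adjusted p = 0.354).

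Among the assembly factors, 3 of 7 pyruvate estimates were above 0, with a median of −0.05 on the log2 scale, and none was called. Without replicates 3 and 4, 5 of 7 were above 0, with a median of 0.03. NDUFAF5, which hydroxylates an arginine of NDUFS7 during assembly, had 18.5, 20.3, 13.4 and 12.04 CPM with pyruvate, against 20.3, 19.3, 19.2 and 17.1 CPM in untreated cells, and 19.6, 17.9, 20.1 and 16.7 CPM with AKB. Replicates 3 and 4 were the low libraries. Its log2 fold change was −0.24 (adjusted p = 0.284 by edgeR), and 0.03 without them, and for AKB against pyruvate 0.21 (95% interval −0.12 to 0.54, adjusted p = 0.396), the highest of that comparison. NDUFAF2, a chaperone that binds late assembly intermediates, had another pattern: its pyruvate libraries all lay above the untreated ones (log2 0.46, adjusted p = 0.0553), and the estimate was 0.37 without replicates 3 and 4.

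Without regard to a test over genes, the libraries can be set against the untreated range. With pyruvate, 4 genes had all libraries above the untreated ones (NDUFA12, NDUFA13, NDUFAF2 and NDUFS5) and 2 had them all below (NDUFAB1 and NDUFB2), beside 4.89% and 6% of all genes tested. Replicates 3 and 4 were both above the untreated range for 26 genes and both below it for 10, beside 32.9% and 35.9%. Replicates 1 and 2 were both above it for 7 genes (these 4 and NDUFA10, NDUFAF6 and NDUFV2) and both below it for 2, beside 11.4% and 11.3%. Between AKB and pyruvate, 8 genes had all AKB libraries below all pyruvate libraries and 0 had them above, beside 4.54% and 7.08%. These 8 were NDUFA9, NDUFA12, NDUFA13, NDUFAF2, NDUFB3, NDUFB11, NDUFS3 and NDUFS5.

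With pyruvate, 17 genes had an unadjusted p below 0.05 and a positive estimate, beside 15% of all genes tested, and 3 a negative one, beside 13.9%. Of these 17, 8 also did so without replicates 3 and 4, 15 still had an estimate above 0, and 10 had an estimate at least 2 times as large on the log2 scale with these libraries as without. The 8 were NDUFA8, NDUFA12, NDUFA13, NDUFAF2, NDUFB7, NDUFS5, NDUFS6 and NDUFV2. NDUFA8 and NDUFS5 belong to the proximal arm on its intermembrane space side, NDUFS6 and NDUFA12 to the N module, where NDUFA12 takes the place that NDUFAF2 holds during assembly. Without replicates 3 and 4 the count was 10 higher and 2 lower, beside 7.1% and 7.03%, and the sign was unchanged for 32 of 43 genes. At an adjusted p below 0.05, that fit called 1 of the 43 higher, NDUFS5, and 0 lower, beside 0.151% and 0.56%.

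**Figure D3:**
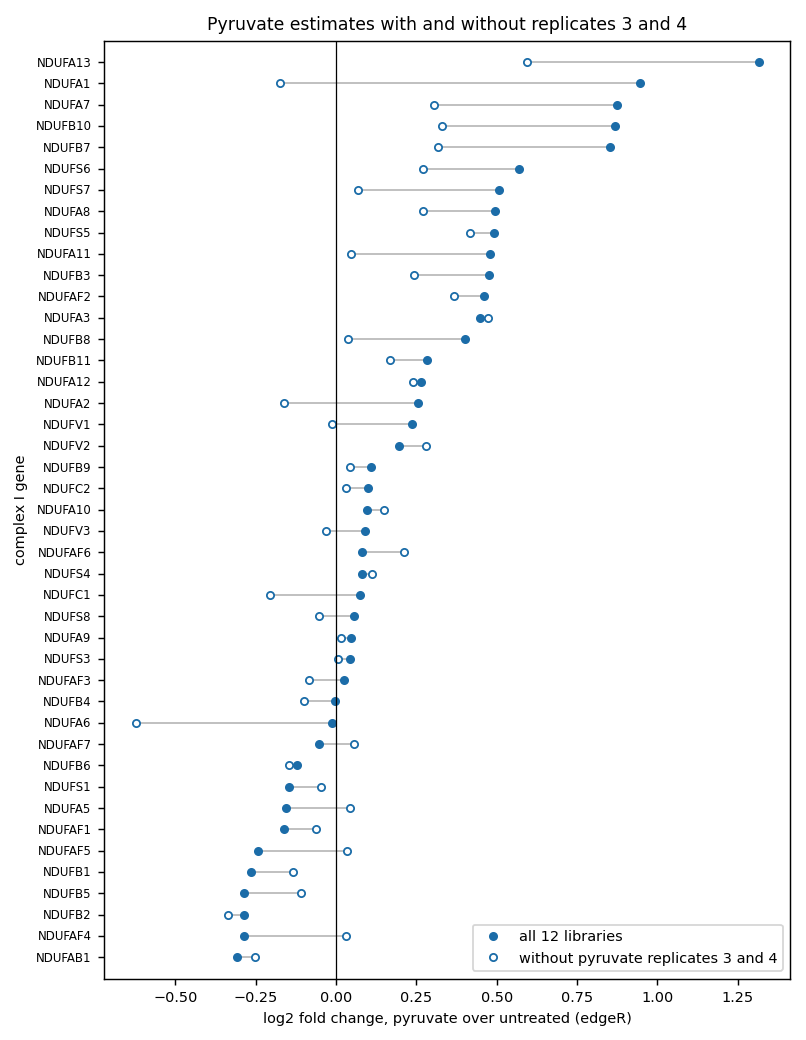
Log2 fold change of pyruvate over untreated cells from edgeR for each of the 43 genes, with all 12 libraries (filled) and without pyruvate replicates 3 and 4 (open). The points move furthest for NDUFA1 (0.94 against −0.17) and least among the called genes for NDUFB2 and NDUFS5; NDUFA6, with 0 counts in replicate 1, moves left.

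Transcript GC content tracked the levels most closely in pyruvate replicates 3 and 4. Over the 43 genes, Spearman's rho between GC content and the log2 level relative to the untreated mean was 0.205, 0.180, 0.734 and 0.716 in pyruvate replicates 1 to 4, as a description over genes that share a library. Over 10021 genes it was 0.118, −0.0996, 0.803 and 0.821. The AKB and untreated libraries were not free of such a trend. Among them rho ran from −0.513 (untreated replicate 3) to 0.572 (untreated replicate 4) over the 43 genes. Over the 10021 genes it ran from −0.412 (untreated replicate 1) to 0.579 (untreated replicate 4). The 18 complex I genes at or above the median GC content of all genes tested had a median log2 level of 0.74 and 0.62 in pyruvate replicates 3 and 4. There 4830 such genes overall had 0.29 and 0.31. In replicates 1 and 2 the same 18 genes stood at 0.04 and 0.19, against 0.01 and −0.02 for the 4830.

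The 25 genes of lower GC content had medians of 0.06 and 0.01 in replicates 3 and 4, where 5191 such genes overall stood at −0.33 and −0.35. In these libraries the medians of both GC classes of complex I genes were higher than those of all genes of the same class. The transcripts are short, with a median of 1263 nucleotides against 3273 over all genes tested. Transcript length had a rho of −0.497 and −0.452 with the level in replicates 3 and 4 over the 43 genes, and of −0.328 and −0.255 over the 10021 genes. In the other libraries this rho ran from −0.355 (AKB replicate 2) to 0.315 (untreated replicate 3) over the 43 genes. The part of GC content, length and depth in the pyruvate results was tested only through the offset for GC content. With that offset, 12 of the 43 genes were called higher with pyruvate and 1 lower, beside 5.5% and 4.18% of all genes tested, and between AKB and pyruvate 0 were called higher and 13 lower, beside 7.46% and 7.11%.

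The 12 genes called higher with pyruvate under the GC-content offset were NDUFA7, NDUFA8, NDUFA10, NDUFA12, NDUFA13, NDUFAF2, NDUFB3, NDUFB7, NDUFB10, NDUFS5, NDUFS6 and NDUFV2. Their log2 fold changes ran from 0.14 for NDUFA10 to 1.00 for NDUFA13. For NDUFA7, a subunit of the N module with a GC content of 55.7%, the estimate was 0.71 with the offset and 0.88 without it. For NDUFB3, a small distal arm subunit with a GC content of 44.1%, it was 0.62 with the offset and 0.48 without it. DESeq2's Wald test on the same counts called 14 higher and 2 lower with pyruvate, beside 9.38% and 6.38% of all genes tested.

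**Figure D4:**
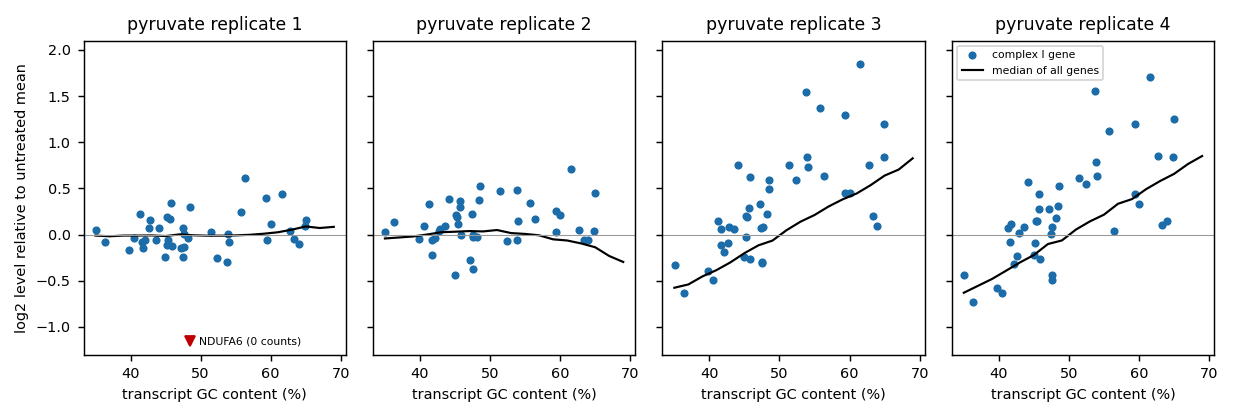
Log2 level relative to the untreated mean against transcript GC content in each pyruvate library, for the 43 complex I genes (points) and as the median of all genes in steps of 2 percentage points of GC (line). The line is nearly level in replicate 1, dips at high GC in replicate 2 and climbs in replicates 3 and 4, where most points lie above it. NDUFA6, with 0 counts in replicate 1, is drawn as a triangle near the lower edge. Its height there is not its value, which is −6.43 and off the axis.

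The promoters were searched for 3 motifs on both strands in the RefSeq windows (GRCh38.p14, 250 bases before to 50 after the start), in which 38 of the 43 genes matched. The motif of NRF1, a transcription factor of nuclear genes for mitochondrial proteins, was written GCGCNTGCG and was found for 12 of the 38 genes (31.6%) and for 2461 of 27305 genes in all (9.01%). The 12 were NDUFA3, NDUFA5, NDUFA6, NDUFA8, NDUFA9, NDUFA11, NDUFA12, NDUFAF5, NDUFB4, NDUFC1, NDUFS6 and NDUFS7. The ETS motif ACCGGAAG was found for 1 of 38 (2.63%) and 715 of 27305 (2.62%), and TCAAGGTCA, which oestrogen-related receptors bind, for 0 of 38 and 118 of 27305 (0.432%). A match says only that the letters are present. The 27305 genes were not matched to the 38 for gene type, promoter GC content or number of windows, and no test was made of the shares.

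The windows of NDUFA11 and NDUFAF5 are printed because both hold the NRF1 letters (in capitals, in NDUFAF5 on both strands with an overlap), while their levels in pyruvate replicates 3 and 4 went opposite ways. NDUFA11, a subunit of the proximal arm, had 63.5, 63.7, 104 and 112 CPM with pyruvate, against 55.6, 61.9, 60.5 and 68.3 CPM in untreated cells. Replicates 3 and 4 were high, and replicates 1 and 2 were within the untreated range. Its high libraries, replicates 3 and 4, are the low ones of NDUFAF5. The transcripts have a GC content of 62.7% (NDUFA11) and 40.5% (NDUFAF5). In replicates 3 and 4, all genes near the first GC content had median log2 levels of 0.54 and 0.58. Those near the second had −0.39 and −0.39. With the GC-content offset the pyruvate estimates were 0.17 for NDUFA11 and −0.06 for NDUFAF5, against 0.48 and −0.24 without it. A part of the motif was not tested. The windows lie at chr19:5903741-5904040 on the minus strand (NDUFA11) and at chr20:13784778-13785077 on the plus strand (NDUFAF5).

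NDUFA11: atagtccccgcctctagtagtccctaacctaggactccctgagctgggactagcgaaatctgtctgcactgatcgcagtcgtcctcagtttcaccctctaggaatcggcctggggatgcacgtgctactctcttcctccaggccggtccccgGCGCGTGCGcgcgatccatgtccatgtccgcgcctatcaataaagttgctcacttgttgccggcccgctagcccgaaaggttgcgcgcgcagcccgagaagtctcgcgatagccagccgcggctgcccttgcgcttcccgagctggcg

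NDUFAF5: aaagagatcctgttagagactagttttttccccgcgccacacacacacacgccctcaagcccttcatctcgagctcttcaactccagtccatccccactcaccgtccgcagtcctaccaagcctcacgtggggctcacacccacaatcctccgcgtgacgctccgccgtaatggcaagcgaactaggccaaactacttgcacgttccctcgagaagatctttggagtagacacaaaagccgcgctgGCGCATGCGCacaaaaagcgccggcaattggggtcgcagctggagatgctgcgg

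Other genes of complex I were read from a fixed list. Of 12 further assembly factors, among them ACAD9, ECSIT and TIMMDC1 of the membrane arm assembly complex, 0 were called in any of the 3 comparisons by edgeR. At an unadjusted p below 0.05, 0 were higher and 0 lower with AKB (8.07% and 5.13% of all genes tested). With pyruvate 1 was higher and 0 lower (15% and 13.9%), and with AKB against pyruvate 0 were higher and 5 lower (12.2% and 12.1%). Without pyruvate replicates 3 and 4 these were 0 and 0 with pyruvate, and 1 and 1 for AKB against pyruvate. Of the 7 subunit genes of mitochondrial DNA, 1 was called, higher with pyruvate (1.02% of all genes tested). This was MT-ND5, a proton-pumping subunit at the tip of the membrane arm. MT-ND5 had 2304, 2381, 2601 and 2932 CPM with pyruvate, against 1402, 1757, 1631 and 1884 CPM in untreated cells, without overlap. With AKB it had 1567, 2053, 2042 and 1985 CPM.

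The pyruvate change of MT-ND5 was 0.61 on the log2 scale (adjusted p = 0.0206 by edgeR), and 0.49 (adjusted p = 0.0901) without pyruvate replicates 3 and 4. The call was lost without untreated replicate 1, 2 or 3 or pyruvate replicate 3 or 4 (0.0701 to 0.0997). These fits called 1 to 3 of all genes higher with pyruvate, against 139 in the fit of all 12 libraries. Of the other mitochondrial genes, MT-ND6 had the highest pyruvate estimate (log2 1.04, adjusted p = 0.0889), at 0.33 without replicates 3 and 4, and MT-ND4L the lowest (−0.39, adjusted p = 0.101), at −0.28 without them. MT-ND6 lies next to MT-ND5 on the other strand. The kit does not mark strand, so reads from either strand there cannot be told apart. Selection for poly(A) tails limits how mitochondrial transcripts compare with nuclear ones.

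In the authors' deposited tables a positive value means higher in the group named first. In the authors' deposited table of untreated over AKB, 1 of the 43 genes had an adjusted p below 0.05, NDUFB2, which was higher in untreated cells, where 2.16% of all genes with an adjusted p were higher and 2.73% lower. The authors' deposited table of untreated over pyruvate had 3 of the 43 higher and 14 lower in untreated cells, beside 4.88% and 7.14% of all genes. That of AKB over pyruvate, also the authors' deposited table, had 0 higher and 11 lower with AKB, beside 4.32% and 5.73%. NDUFV3, an N module subunit, differed between sources. It had a log2 value of 0.29 for untreated over pyruvate in the authors' deposited table (adjusted p = 0.0069), hence lower with pyruvate. The deposited counts gave 58.1, 58.2, 69.7 and 67.1 CPM with pyruvate and 56.9 to 63.7 CPM in untreated cells, and DESeq2 on them gave a pyruvate estimate of 0.10 (adjusted p = 0.361).

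NDUFA10, a subunit of the proximal arm, had −0.40 for AKB over pyruvate in the authors' deposited table (adjusted p = 0.0010), where DESeq2 on the deposited counts gave −0.13 (adjusted p = 0.0979). With pyruvate against untreated cells, 6 of the 43 genes differed by more than 0.2 on the log2 scale between the authors' deposited table and DESeq2 on the deposited counts, and 7 had the opposite sign. With AKB against untreated cells, 0 differed by that much and 2 had the opposite sign. The reason was not tested.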

How the data were processed

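Per the labels' protocols, poly(A)-selected RNA was fragmented before reverse transcription, with a kit that does not mark strand. Salmon 1.2.1, DESeq2 1.26.0 and R 3.6.3 were used per the submitters' processing notes. Genome build, annotation and tool settings: not given in the sources used here. Estimated counts fill the deposited table, 1 value per gene and library, made by the authors. Its values are whole numbers, so that rounding changed none. Per the file headers, the authors also deposited 3 tables with a mean normalised signal (baseMean), a log2 fold change and its standard error, a test score (stat) and the p-value before and after adjustment.

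Symbols were matched by Ensembl identifier for 95.2% of 17786 identifiers. Coordinates, GC content and length came from GENCODE on GRCh38, from the longest protein-coding transcript where there is one, for 95.0%. Genes were kept by edgeR's filterByExpr (minimum count 10). TMM scaling and edgeR's quasi-likelihood test followed, over all 12 libraries with 1 term per group, with Benjamini-Hochberg adjustment over all 13598 genes and calls at an adjusted p below 0.05. An adjusted p without a tool beside it is from edgeR. The standard error is the log2 fold change over the square root of F, and intervals are 95% intervals from the t distribution. Tools were R 4.3.3, edgeR 4.0.16, limma 3.58.1 and DESeq2 1.42.0. The scripts were tested on simulated data. The GC-content offset was a lowess curve (span 0.3) per library. Levels per library were compared as log2 (CPM + 0.5), and medians over all genes used those with at least 5 CPM.

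The 43 genes and the lists were chosen with earlier results of these data known. Genes named are those called, those with the highest and lowest estimate of each comparison, and the core subunits. The others that are named lie outside this rule and were chosen after their values were seen, as were NDUFA6 and the genes set beside the authors' tables. Replicate numbers are not tied to a shared batch in the labels. No replicate pair within a group agreed within counting noise. Depth ran from 15353200 to 21301073 counts, and intervals cover the spread between libraries.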

Additional observations from a re-analysis of the deposited data

Results flagged for a closer look

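Of 129 groups of 4 libraries, 12 had 1 library far from the other 3 by Dixon's test at 95%, which chance gives in about 1 of 20 groups. In the AKB group these were NDUFS6 in replicate 3 (57.7 CPM, others 69.6 to 71.5), NDUFB7 in replicate 1 (28.2 CPM, others 33.7 to 34.5) and NDUFAF4 in replicate 1 (84.2 CPM, others 71.8 to 73.1). In the pyruvate group they were NDUFA6 in replicate 1 (0 CPM, others 53.2 to 60.4), NDUFA12 in replicate 1 (47.8 CPM, others 51.7 to 52.4), NDUFA9 in replicate 1 (74.4 CPM, others 81.2 to 82.6) and NDUFB2 in replicate 2 (85.4 CPM, others 97.8 to 99.5). In the untreated group they were NDUFS5 in replicate 4 (153 CPM, others 132 to 135), NDUFB10 in replicate 4 (44.6 CPM, others 31.5 to 32.6), NDUFB5 in replicate 4 (126 CPM, others 142 to 145), NDUFB3 in replicate 2 (19.3 CPM, others 23.7 to 24.2) and NDUFAF6 in replicate 1 (19.5 CPM, others 22.7 to 23.3). Untreated replicate 4 was thus high for NDUFS5 and NDUFB10 and low for NDUFB5.

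The effects of AKB and pyruvate differed for NDUFS5, by −0.32 on the log2 scale (adjusted p = 0.0457 by edgeR, lower with AKB in 4 of 4 libraries). The adjusted p of this difference ran from 0.0015 to 0.146 over the alternatives.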

How the results depend on the processing

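Counts of the 43 genes called depended on the setting. With AKB against untreated cells, 0 were called higher under every alternative run and 1 lower, except 0 lower with the replicate block, with the GC-content offset and replicate block, and with some single libraries left out (0 to 1). With pyruvate, the 2 higher and 1 lower became 14 and 2 by DESeq2's Wald test (9.38% and 6.38% of all genes). They became 0 and 0 with only the 8 libraries compared (0.0151% and 0.105%) and 1 and 0 without pyruvate replicates 3 and 4 (0.151% and 0.56%). With the GC-content offset 12 were higher (5.5%). With DESeq2's size factors or with no filter on low counts, 0 were lower (0.919% and 0.444%). Leaving out single libraries gave 0 to 17 higher and 0 to 4 lower, where 1 to 1931 and 31 to 1680 of all genes were called. Without pyruvate replicate 1 there were 17 and 2 (10.2% and 8.87% of all genes), and without pyruvate replicate 2 15 and 4 (14% and 12.2% of all genes). Without untreated replicate 1, 2 or 3 there were 0 and 0, where only 1 to 2 of all genes were called higher and 31 to 33 lower. For AKB against pyruvate, the 1 lower became 11 by DESeq2's Wald test (7.48% of all genes) and 13 with the GC-content offset (7.11%). It became 0 with no filter (0.388%), with only the 8 libraries compared (0%) or without pyruvate replicates 3 and 4 (1.84%). Single libraries left out gave 0 to 14, where 7 to 1189 of all genes were called lower, and no alternative called any of the 43 higher. The cause was not tested.

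The replicate number as a block gave 0 lower with AKB, 7 higher with pyruvate and 2 lower for AKB against pyruvate, beside 0.346%, 2.25% and 1.04% of all genes; with the GC-content offset and replicate block there were 0, 14 and 15, beside 3.03%, 5.91% and 7.24% of all genes. The numbers were not shown to pair the libraries, since 6 of 12 same-numbered pairs correlated above 0.1 (r −0.138 to 0.372) and 5 of 12 libraries were closest to their own number.

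Uncalled estimates that changed sign are listed here only for the genes named by the rule above, and other genes changed sign too. Without pyruvate replicates 3 and 4, 32 of the 43 genes kept the sign of their pyruvate estimate. For the genes named by the rule the changes were as follows. Without pyruvate replicates 3 and 4, pyruvate estimates were 0.035 for NDUFAF5, −0.17 for NDUFA1, −0.012 for NDUFV1 and −0.053 for NDUFS8, and those of AKB against pyruvate 0.0061 for NDUFB2, −0.065 for NDUFAF5, 0.068 for NDUFA1 and −0.034 for NDUFS1. With the GC-content offset, and with the replicate block added, NDUFS1 had 0.020 and 0.019 with pyruvate and −0.058 and −0.058 for AKB against pyruvate. NDUFS8 had −0.22 and −0.23, and 0.057 and 0.060, and NDUFAF5 had 0.019 and 0.018 with AKB. Leaving out single libraries gave −0.076 to 0.023 for NDUFAF5 and −0.096 to 0.082 for NDUFS7 with AKB, and −0.084 to 0.26 for NDUFA3 between AKB and pyruvate.

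Over the whole table, the calls higher and lower were 186 and 82 with AKB, 139 and 126 with pyruvate and 264 and 162 between them. They were 682 and 494, 748 and 569, and 1014 and 967 with the GC-content offset; 677 and 601, 21 and 78, and 351 and 257 without pyruvate replicates 3 and 4; 335 and 196, 1086 and 738, and 636 and 891 by DESeq2's Wald test; 709 and 630, 2 and 14, and 6 and 0 with only the 8 libraries compared; and 126 and 70, 73 and 79, and 145 and 69 with no filter. With the replicate block they were 111 and 47, 306 and 259, and 214 and 142.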
